A study of Mus musculus with 9 samples.

Results

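Perineuronal net and brain matrix genes were examined as a family of 10 genes, Acan, Bcan, Ncan, Vcan, Hapln1, Hapln2, Hapln4, Tnc, Tnr and Ptprz1, in the medial prefrontal cortex (mPFC) of stressed and unstressed mice. They were taken by gene symbol, and all 10 were found among the 24532 genes listed for every mouse. All 10 also averaged at least 30 reads per mouse and so belonged to the 14370 genes that were tested.

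RNA from 9 mice was sequenced, 3 in each of 3 groups, with a single library per mouse, to ask how chronic restraint stress and loss of Fkbp5 change the cortical transcriptome. Fkbp5 encodes a co-chaperone of the glucocorticoid receptor. CT mice were wild type and stayed unrestrained in their home cages, without food and water during the hours in which the others were restrained. WT_ST mice were wild type and were held in a latex glove for 6 h a day over 3 weeks. KO_ST mice were Fkbp5-/- and were restrained in the same way. By the labels all mice were of the C57BL/6 strain and 11 weeks old, and by the methods all were male. The knockout line came from the Jackson Laboratory and had been backcrossed to C57BL/6J, and no unstressed knockout group was analysed here, so that in KO_ST against CT the effects of stress and of genotype cannot be told apart.

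Perineuronal nets are lattices of extracellular matrix that wrap the cell body and proximal dendrites of certain neurons, in cortex above all the fast-spiking parvalbumin interneurons. A backbone of hyaluronan carries the lecticans (aggrecan, brevican, neurocan and versican, encoded by Acan, Bcan, Ncan and Vcan), which are chondroitin sulfate proteoglycans. Link proteins of the Hapln family fasten the lecticans to hyaluronan, and tenascin-R, from Tnr, crosslinks their other ends. Nets form late in postnatal life and are known for limiting plasticity, while the looser matrix between cells is built from many of the same molecules by neurons, astrocytes and oligodendrocyte precursors.

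Library depth lay between 43778471 and 61150128 counted reads, and no 2 libraries agreed within sampling noise (chi-square per degree of freedom of at least 17.6). The targeted gene Fkbp5 had an FPKM (fragments per kilobase of transcript, scaled to the mapped fragments of each library) of 6.46 to 7.61 in CT, 9.47 to 10.3 in WT_ST and 3.59 to 4.69 in KO_ST, so the groups stood apart, with 625 to 907 reads left on this gene in KO_ST. Markers of excitatory cortical neurons summed to an FPKM of 1442 to 1562 in all mice. Striatal markers summed to 46.1 to 55.0 in CT, 55.6 to 68.9 in WT_ST and 46.6 to 56.7 in KO_ST, and were thus highest in WT_ST, with 3 of 6 called higher against CT. No member lies on chromosome 17, which carries Fkbp5.

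The members covered a wide range of levels per transcript length. Bcan was highest, at a mean FPKM of 72.4 over the 9 mice, above 93.3% of the tested genes. It was followed by Ncan at 42.3, Hapln4 at 34.2, Ptprz1 at 24.2 and Tnr at 8.52. Hapln2 came next at 3.80, then Hapln1 at 3.64, Vcan at 2.48 and Tnc at 0.836. Acan, the lectican most closely tied to nets, was lowest at 0.299, above only 2.43% of the tested genes, and rested on 82 to 163 reads per mouse. Neighbours in this order did not overlap in any mouse except for Ncan and Hapln4, where Ncan was higher in 7 of 9 mice, and Hapln2 and Hapln1, where Hapln2 was higher in 4 of 9 mice.

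**Figure D1:**
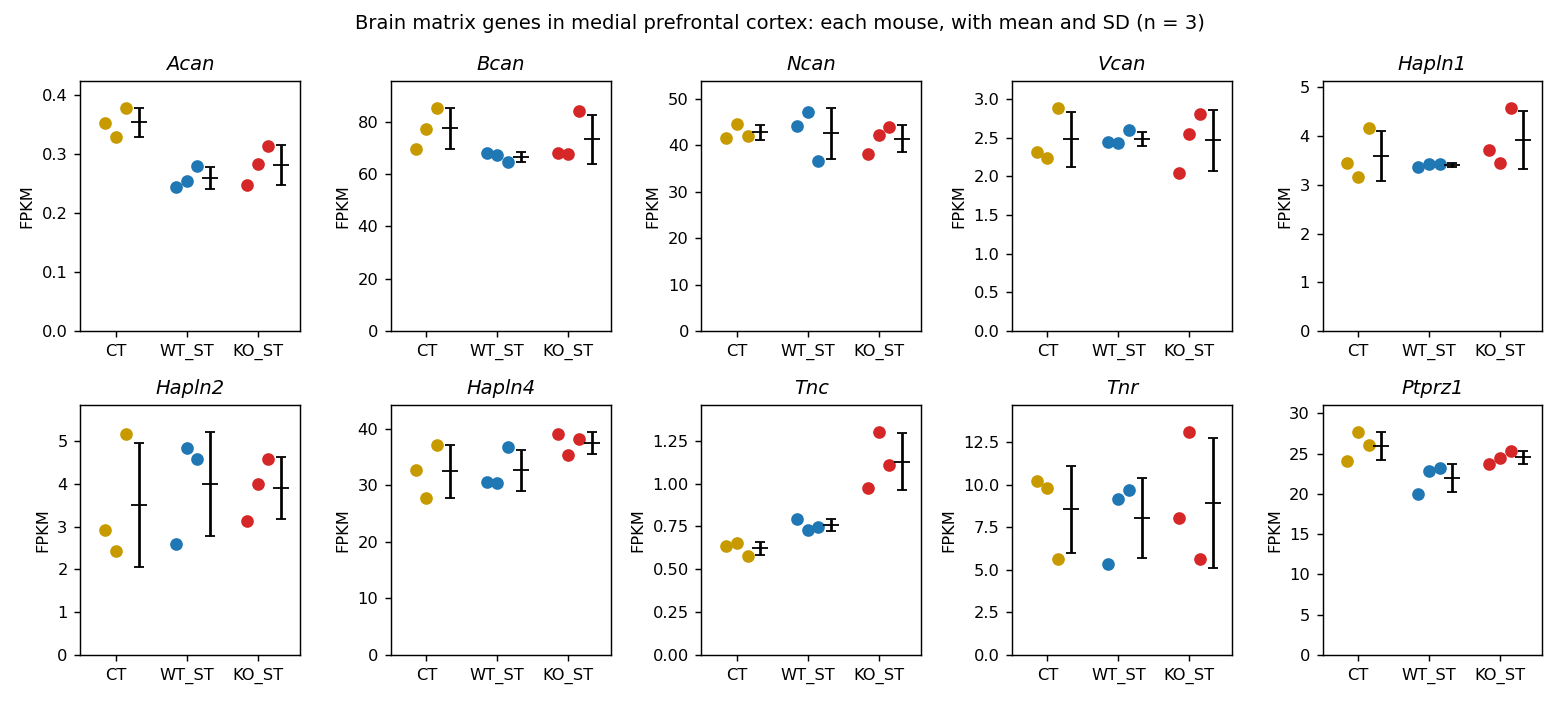
FPKM of the 10 members (linear axes from 0, a separate scale per gene) in each CT, WT_ST and KO_ST mouse, with the group mean and SD (n = 3) beside the points. Tnc is the only member whose 3 groups are all apart, from 0.578 to 0.653 in CT up to 0.977 to 1.3 in KO_ST, while Tnr and Hapln2 spread widely inside every group.

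A gene was called different at an unadjusted p under 0.05 (limma on quantile-normalized log2(FPKM + 1)) with a fold change above 1.2. By this rule no member was called in WT_ST against CT, where 2.47% of all tested genes were. In KO_ST against CT 1 of 10 members was called, against 3.56% of all genes, and in KO_ST against WT_ST 1 of 10, against 2.0%. The called member was Tnc both times, higher in KO_ST, a direction of call shared by 1.54% and 0.946% of all tested genes. No member reached a Benjamini-Hochberg adjusted p under 0.05 in limma, where 5, 9 and 22 of all genes did (0.0348%, 0.0626% and 0.153%). At an unadjusted p under 0.05 alone stood 3, 1 and 3 members in the 3 comparisons, against 7.86%, 9.46% and 5.82% of all tested genes. Groups did not overlap for 4, 2 and 3 members, against 14.0%, 15.8% and 11.0%. On the log2 scale the mean was lower in WT_ST than in CT for 6 members (48.7% of all genes), lower in KO_ST than in CT for 4 (49.0%) and lower in KO_ST than in WT_ST for 3 (50.7%). In mean FPKM Vcan was lower in KO_ST than in CT as well (-0.533%). Their median log2 fold changes were -0.02, 0.04 and 0.12, with medians over all tested genes of 0.00 each. The first 2 comparisons share the CT mice, and the last shares its mice with each of them.

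**Figure D2:**
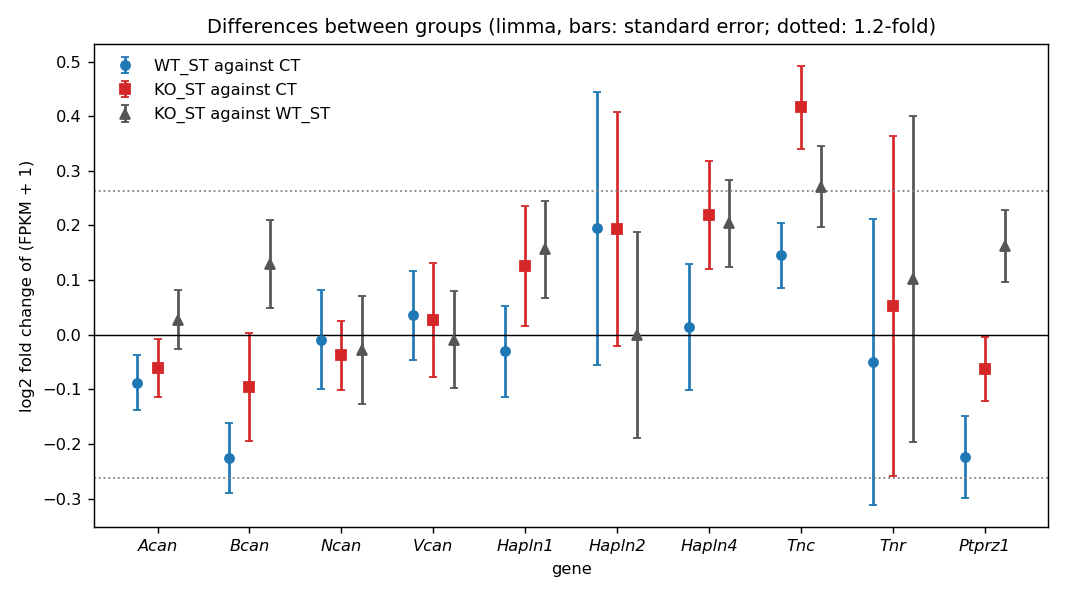
Log2 fold change of (FPKM + 1) for each member in WT_ST against CT (blue circles), KO_ST against CT (red squares) and KO_ST against WT_ST (grey triangles), with limma's standard error as bars and the 1.2-fold limit dotted. Only Tnc lies past the limit with an unadjusted p under 0.05, at 0.42 and 0.27 in the comparisons with KO_ST.

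Tnc encodes tenascin-C, a matrix glycoprotein of development, injury and stem cell niches that is made mostly by astrocytes and radial glia and binds lecticans. Its FPKM was 0.635, 0.653 and 0.578 in the CT mice, 0.795, 0.727 and 0.746 in WT_ST, and 0.977, 1.3 and 1.11 in KO_ST. Every WT_ST mouse lay above every CT mouse, and every KO_ST mouse above every WT_ST mouse. Of all tested genes 111, or 0.772%, had all 3 groups apart in any order, and Tnc was the only member among them. The ratio of mean FPKM was 1.82 in KO_ST against CT and 1.49 in KO_ST against WT_ST, from 206 to 435 reads per mouse. On the log2(FPKM + 1) scale, which understates changes of genes this low, the difference was 0.42 in KO_ST against CT (standard error, SE, 0.0758, limma unadjusted p = 0.000852 and Benjamini-Hochberg adjusted p = 0.306). In KO_ST against WT_ST it was 0.27 (SE 0.0735, limma unadjusted p = 0.00738 and adjusted p = 0.69).

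From the read counts, the log2 fold change of Tnc was 0.88 in KO_ST against CT, with a Benjamini-Hochberg adjusted p of 0.215 in edgeR and 8.39e-05 in DESeq2. Against WT_ST it was 0.59, with an adjusted p of 0.509 in edgeR and 0.0360 in DESeq2, so these tools differed on whether Tnc passed. At an adjusted p under 0.05, DESeq2 passed 113 and 76 of all 14370 tested genes in these comparisons, and edgeR 8 and 23. The call in KO_ST against WT_ST also depended on single mice, since the log2 fold change fell to 0.21 without KO_ST replicate 2 and to 0.26 without WT_ST replicate 2, both under the 1.2-fold limit. In WT_ST against CT the FPKM ratio was 1.21, and the difference of 0.15 on the log2(FPKM + 1) scale (SE 0.0591, limma adjusted p = 0.635) stayed below the fold limit. The edgeR fit put that same comparison at 0.29 (unadjusted p = 0.0324, adjusted p = 0.662) and so called it. Of 7 markers of astrocytes, a main source of tenascin-C, none was called higher in any comparison, and their summed FPKM, to which Aldoc, Slc1a2 and Slc1a3 add most, was 664 to 766 in KO_ST and 729 to 796 in CT. Gfap, which marks reactive astrocytes, had a mean FPKM of 26.3 in KO_ST and 21.2 in CT (0.27 on the log2 scale, limma adjusted p = 0.711), and the part of astrocytes in the level of Tnc was not tested.

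The sequence just before the transcription start of Tnc is shown because Tnc is the member called against both other groups. RefSeq promoter windows on GRCm38.p6 were found for 9 of the 10 members, and the 250 bases before the start were read in the direction of the gene. Capitals mark matches, on either strand, to the GC box GGGCGG and the TATA box TATAAA.
Tnc, chr4:64047016-64047265, minus strand: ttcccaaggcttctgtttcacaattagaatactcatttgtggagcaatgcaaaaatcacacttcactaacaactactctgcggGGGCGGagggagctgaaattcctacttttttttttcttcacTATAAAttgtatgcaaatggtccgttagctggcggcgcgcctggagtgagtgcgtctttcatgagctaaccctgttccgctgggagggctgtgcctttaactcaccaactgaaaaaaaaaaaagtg
Tnc held a GC box 84 bases into the window and a TATAAA at base 125. Of the 27025 mouse promoter windows of this length, 33% held GGGCGG and 13.0% held TATAAA. The complete glucocorticoid response element was searched as AGAACA followed after 3 free bases by its reverse complement TGTTCT, which 0.0037% of the windows held, and as its single arm AGAACA, which 16.1% held and which lies inside the longer motif. The Tnc window held neither, nor the AP-1 site TGANTCA (6.85% of windows), nor the SOX site AACAAT (9.62%). At 44.8% G and C it was poorer in these bases than the windows of Acan (74.4%), Ptprz1 (71.6%) and Bcan (62%), with a median of 52% over all windows. None of the 9 members with a window held the complete element.

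Tnr encodes tenascin-R, the net's crosslinker, which is made by oligodendrocytes and some neurons. Its FPKM was 10.2, 9.81 and 5.61 in CT, 5.36, 9.15 and 9.68 in WT_ST, and 8.04, 13.1 and 5.63 in KO_ST. Each group held a low mouse, between 5.36 and 5.63, beside mice between 8.04 and 13.1, and all 3 groups overlapped. Its spread inside groups (SD of 0.470 on the log2 scale) was wider than that of 98.8% of the tested genes. The log2 fold changes were -0.05 in WT_ST against CT, 0.05 in KO_ST against CT and 0.10 in KO_ST against WT_ST, with SEs of 0.262, 0.312 and 0.298, so a change of considerable size in either direction could not be seen with these mice.

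The level of Tnr varied together with that of many other genes. Of the 14360 tested genes that are not members, 153, or 1.07%, followed Tnr over the 9 mice at a Pearson r above 0.9, where the other members had 5 to 29 such genes. The closest was Adcy1, a calcium-stimulated adenylyl cyclase of neurons (r = 0.987, Spearman rho = 0.967, a description over 9 mice picked as the best of all genes). Adcy1 had an FPKM of 65.4 to 66.1 in the 3 mice with low Tnr and 76.1 to 94.1 in the other mice. The genes that followed Tnr had a median transcript length of 5.84 kb, computed from reads and FPKM, against 2.99 kb over all tested genes, and Tnr itself had 5.50 kb. These counts were made after the spread of Tnr had been seen, and the part of transcript length in it was not tested.

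**Figure D3:**
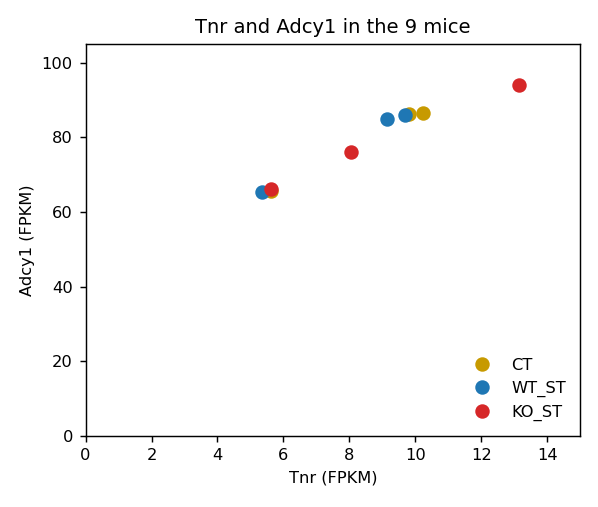
FPKM of Tnr (horizontal axis) and of Adcy1 (vertical axis), both linear from 0, in each of the 9 mice, coloured by group. A mouse of each group sits at the lower left, at a Tnr FPKM of 5.36 to 5.63, and KO_ST replicate 2 at the upper right at 13.1.

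Brevican, from Bcan, is the most abundant lectican of the adult brain and comes from astrocytes, oligodendrocyte precursors and neurons. Bcan had an FPKM of 69.7, 77.4 and 85.3 in CT, 68.1, 67.3 and 64.5 in WT_ST, and 68.2, 67.6 and 84.0 in KO_ST. All WT_ST mice lay below all CT mice, while in KO_ST a single mouse reached the level of CT and the others that of WT_ST. The mean changed by -13.9% in WT_ST against CT, at a log2 fold change of -0.23 (SE 0.0643, limma unadjusted p = 0.00969 and adjusted p = 0.630), which missed the fold limit. With single mice left out it ranged from -0.29 without CT replicate 1, where Bcan was called, to -0.16 without CT replicate 3. In KO_ST the log2 fold change was -0.10 against CT and 0.13 against WT_ST, and neither was called. These values turned on KO_ST replicate 3, without which they were -0.195 and 0.0304, again uncalled, and over all single mice left out they ranged from -0.195 to -0.0350 and from 0.0304 to 0.184.

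Ptprz1 encodes a receptor tyrosine phosphatase of glia whose secreted form, phosphacan, is itself a chondroitin sulfate proteoglycan of the nets. Its FPKM was 24.1, 27.6 and 26.1 in CT, 20.03, 22.8 and 23.2 in WT_ST, and 23.8, 24.5 and 25.3 in KO_ST. WT_ST was the lowest group and overlapped with neither of the others, while CT and KO_ST overlapped. Against CT, WT_ST changed by -15.3% in mean FPKM and by -0.22 on the log2 scale (SE 0.0752, limma unadjusted p = 0.0201 and adjusted p = 0.634). KO_ST was 11.5% higher than WT_ST, or 0.16 on the log2 scale (SE 0.0665, limma unadjusted p = 0.0439 and adjusted p = 0.847). Both differences were under 1.2-fold. The former was called without CT replicate 1 (-0.27) or WT_ST replicate 3 (-0.26), and weakened past an unadjusted p of 0.05 in limma without WT_ST replicate 1 (-0.16) or CT replicate 2 (-0.18). The latter fell to 0.09 without WT_ST replicate 1.

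Marker sums of the glia that make brevican and phosphacan were also lower in every WT_ST mouse than in every CT mouse. Astrocyte markers summed to an FPKM of 729 to 796 in CT, 653 to 686 in WT_ST and 664 to 766 in KO_ST, and none of the 7 was at 0. In WT_ST against CT 2 of 7 were called lower, namely Aqp4, the astrocyte water channel (-0.59), and Slc1a3, a glutamate transporter (-0.30). Not all of the list followed, since 5 of 7 had a lower mean, and Gfap (0.21) and Aldh1l1 (0.16) were higher without being called. Markers of oligodendrocyte precursors summed to 30.7 to 40.4 in CT, 27.3 to 30.01 in WT_ST and 26.5 to 28.9 in KO_ST. Of these markers 2 of 5, C1ql1 and Neu4, were called lower in WT_ST against CT. Their sum was below CT in every KO_ST mouse as well, while Bcan and Ptprz1 overlapped between KO_ST and CT. Microglia, which are not known as a source of these genes, had 5 of 5 markers called lower in WT_ST and in KO_ST against CT. In bulk tissue, fewer cells of a type and less RNA per cell cannot be told apart, and the part of these markers in the levels of Bcan and Ptprz1 was not tested.

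**Figure D4:**
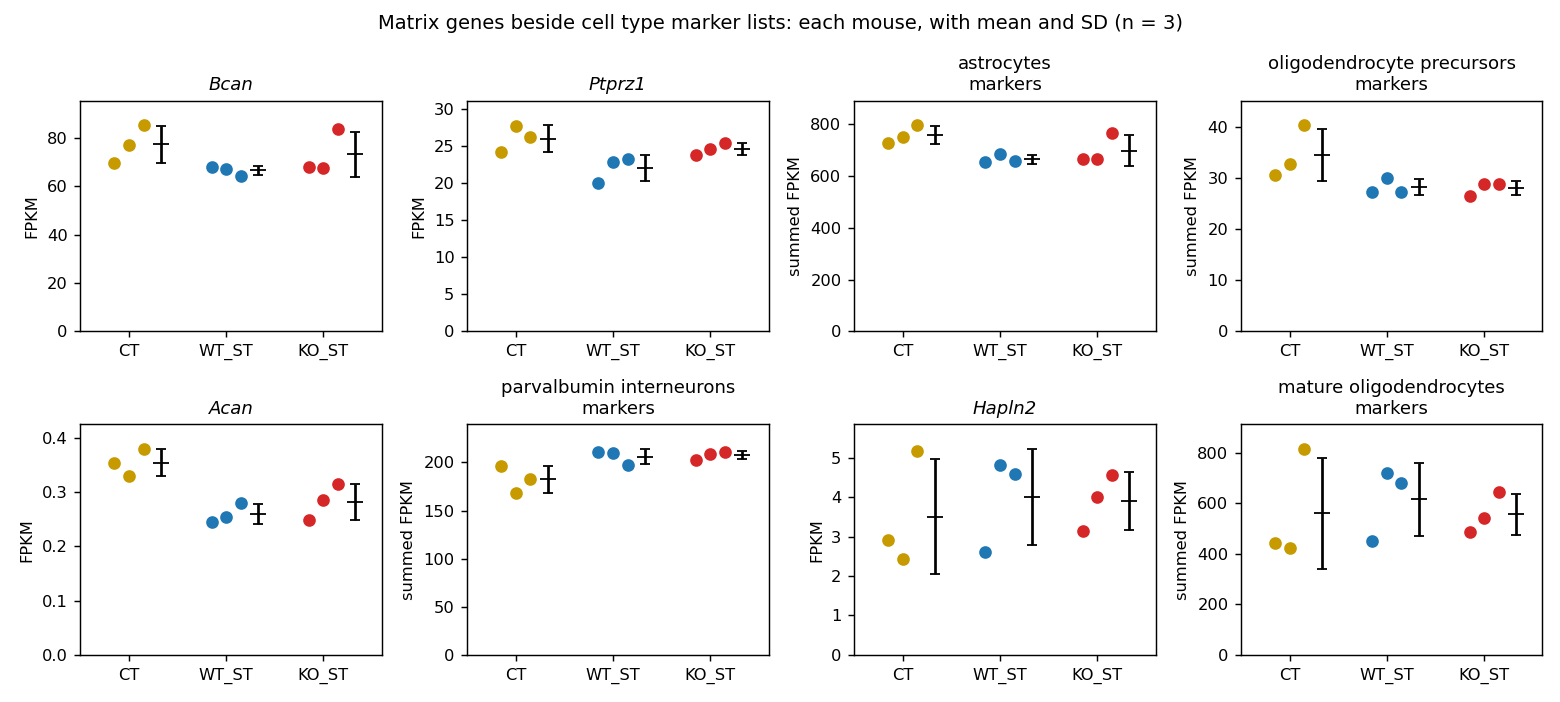
FPKM of Bcan, Ptprz1, Acan and Hapln2 and summed FPKM of 4 cell type marker lists in each mouse (linear axes from 0), with the group mean and SD (n = 3). Bcan, Ptprz1 and the astrocyte sum are each lower in all WT_ST mice than in all CT mice. Acan and the oligodendrocyte precursor sum are lower, and the parvalbumin interneuron sum higher, in both stressed groups than in CT.

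The promoter windows of Bcan and Ptprz1 are shown because these were the members with the lowest unadjusted p in WT_ST against CT. Capitals again mark matches on either strand, to GGGCGG in both and to AGAACA in Bcan.
Bcan, chr3:88000357-88000606, minus strand: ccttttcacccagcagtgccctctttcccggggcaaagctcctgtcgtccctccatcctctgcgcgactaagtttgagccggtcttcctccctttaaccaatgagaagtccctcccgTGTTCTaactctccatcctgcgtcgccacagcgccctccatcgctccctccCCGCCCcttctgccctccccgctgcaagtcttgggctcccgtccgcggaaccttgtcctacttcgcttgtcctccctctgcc
Ptprz1, chr6:22875252-22875501, plus strand: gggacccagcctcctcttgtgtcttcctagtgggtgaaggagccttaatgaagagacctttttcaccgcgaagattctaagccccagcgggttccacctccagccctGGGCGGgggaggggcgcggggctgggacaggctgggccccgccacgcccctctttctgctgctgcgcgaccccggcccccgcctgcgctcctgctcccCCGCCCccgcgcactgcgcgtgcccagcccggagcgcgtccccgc
Bcan held the arm AGAACA at base 118, as its reverse complement, and a GC box at base 169, and Ptprz1 held 2 GC boxes. Bcan was the only one of the 9 members with a match to AGAACA. Both genes have 2 listed transcripts. The start used for Bcan lies inside the span listed for the gene, and the Ptprz1 window reaches into its listed span, which begins at 22875315, so that both of its GC boxes lie within it.

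Acan encodes aggrecan, the defining lectican of perineuronal nets, made in cortex mainly by the neurons that carry them. Its FPKM was 0.354, 0.330 and 0.379 in CT, 0.244, 0.255 and 0.281 in WT_ST, and 0.248, 0.284 and 0.314 in KO_ST. All 6 stressed mice lay below all CT mice, and the stressed groups overlapped. The mean FPKM changed by -26.7% in WT_ST and by -20.4% in KO_ST against CT, with 132 to 163 reads per CT mouse, 91 to 94 per WT_ST mouse and 82 to 122 per KO_ST mouse. On the log2(FPKM + 1) scale, which compresses a gene of this level, the differences were -0.09 (SE 0.0503, limma adjusted p = 0.694) and -0.06 (SE 0.0533, limma adjusted p = 0.738), and neither was called. On the read counts, WT_ST against CT was -0.44 in both edgeR (unadjusted p = 0.0218, adjusted p = 0.662) and DESeq2 (unadjusted p = 0.0389, adjusted p = 0.659), and both tools called it. For KO_ST against CT the read counts gave -0.30 in edgeR (unadjusted p = 0.114, adjusted p = 0.596) and in DESeq2 (unadjusted p = 0.175, adjusted p = 0.758), and neither called it.

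Markers fixed for parvalbumin interneurons, the cells most often wrapped by aggrecan nets, had a higher sum in both stressed groups than in CT. Most of that sum comes from Gad1, Gad2 and Slc32a1, which mark inhibitory neurons in general. The 8 genes summed to an FPKM of 168 to 196 in CT, 197 to 211 in WT_ST and 203 to 211 in KO_ST, and none was at 0. Syt2, a synaptotagmin of their terminals, was called higher in WT_ST (0.69) and in KO_ST (0.59) against CT, and Pvalb itself was called higher in KO_ST (0.34), so that 1 and 2 of the 8 were called, while Lhx6 was at -0.04 in KO_ST against CT. The part of these cells in the level of Acan was not tested.

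Neurocan, from Ncan, is the lectican of the juvenile brain and was the second most abundant here. Its FPKM was 41.7, 44.6 and 42.0 in CT, 44.1, 47.1 and 36.5 in WT_ST, and 38.2, 42.2 and 43.9 in KO_ST. All groups overlapped, and the log2 fold changes were -0.01, -0.04 and -0.03 in the 3 comparisons, with SEs of 0.0906, 0.0633 and 0.0988.

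Versican, from Vcan, is made in several splice forms that differ in how many chondroitin sulfate chains they can carry, and a short brain form comes from oligodendrocyte precursors. Its FPKM was 2.31, 2.23 and 2.88 in CT, 2.44, 2.43 and 2.59 in WT_ST, and 2.04, 2.54 and 2.81 in KO_ST, with all groups overlapping. In FPKM the log2 fold change was 0.04 in WT_ST against CT (SE 0.0814, limma adjusted p = 0.927). The reads gave another picture, with a CPM (reads relative to all reads counted in the mouse, without regard to length) of 20.5, 21.2 and 21.9 in CT, 17.7, 19.2 and 20.1 in WT_ST, and 19.6, 21.9 and 21.9 in KO_ST. In reads every WT_ST mouse lay below every CT mouse, at -0.15 on the log2 scale (adjusted p = 0.683 from edgeR), and KO_ST was 0.16 above WT_ST (adjusted p = 0.925 from edgeR), so that neither passed.

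FPKM and reads differ for Vcan in the transcript length by which the reads were divided. This length, computed as reads over FPKM and depth, was 8.81, 9.43 and 7.56 kb in CT, 7.22, 7.88 and 7.73 kb in WT_ST, and 9.61, 8.53 and 7.74 kb in KO_ST. WT_ST had the lowest mean, 7.61 kb against 8.60 kb in CT and 8.63 kb in KO_ST, but its mice overlapped with CT and with KO_ST. The longest length was 1.33 times the shortest, past the 95th percentile of 1.13 among 4460 tested genes with more than 1 listed transcript. Vcan has 5 listed transcripts, and the other members, with 1 or 2, varied by at most 1.04 times. The length was examined after the FPKM and reads had been seen to differ, and transcript forms themselves were not analysed here.

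**Figure D5:**
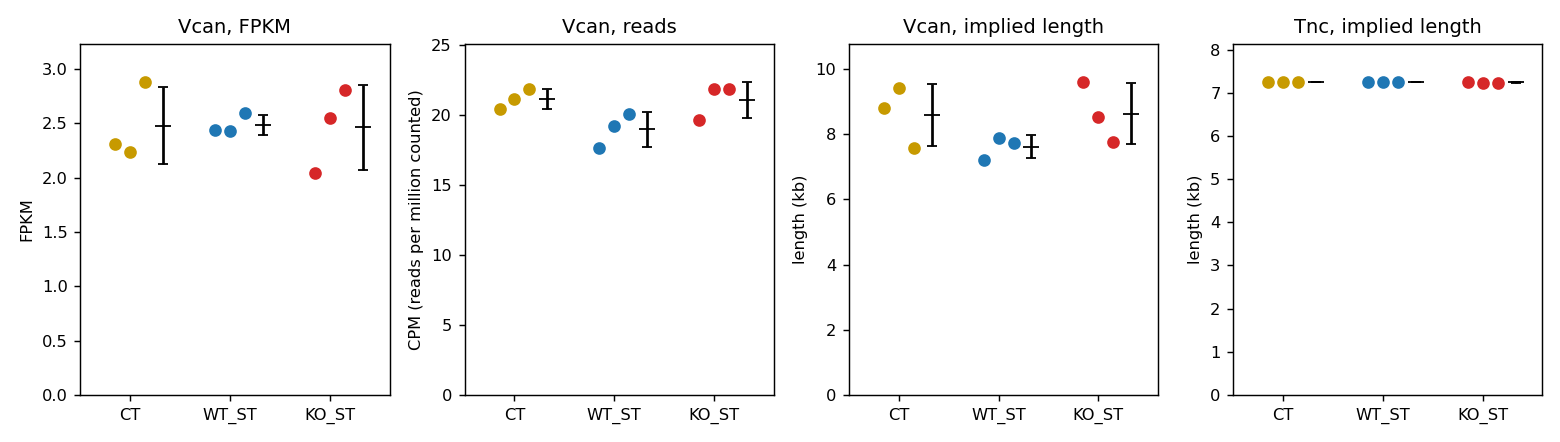
Vcan in FPKM, Vcan in CPM, and the transcript length implied by reads and FPKM (kb) for Vcan and for Tnc, in each mouse with the group mean and SD (n = 3), all axes linear from 0. The implied length of Vcan ranges from 7.22 to 9.61 kb between mice, whereas that of Tnc stays at 7.24 to 7.26 kb.

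The link proteins differed in level and in which groups stood apart. Hapln1, the link protein found in nets around cortical neurons, had an FPKM of 3.44, 3.16 and 4.16 in CT, 3.37, 3.42 and 3.43 in WT_ST, and 3.72, 3.45 and 4.58 in KO_ST. Every KO_ST mouse lay above every WT_ST mouse, by a narrow margin, and CT overlapped with both. KO_ST was 15% above WT_ST, or 0.16 on the log2 scale (SE 0.0889, limma adjusted p = 0.90), which was not called. With single mice left out it ranged from 0.07 without KO_ST replicate 3 to 0.22 without KO_ST replicate 2, and the difference of 0.13 from CT ranged from 0.04 without KO_ST replicate 3 to 0.20 without CT replicate 3, none of them called.

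Hapln4, the link protein of the nets of the brain stem and cerebellum that also supports inhibitory synapses, had an FPKM of 32.6, 27.7 and 37.1 in CT, 30.6, 30.5 and 36.7 in WT_ST, and 39.1, 35.3 and 38.1 in KO_ST. The KO_ST mice were the highest on average, at 37.5 ± 1.99 (SD, n = 3), yet overlapped with a mouse of each other group. The log2 fold change was 0.22 against CT (SE 0.0991, limma adjusted p = 0.544) and 0.20 against WT_ST (SE 0.0798, limma unadjusted p = 0.0366 and adjusted p = 0.830). With single mice left out, the difference from CT ranged from 0.11 without CT replicate 2 to 0.31 without CT replicate 3, and that from WT_ST from 0.15 without WT_ST replicate 1 to 0.29 without WT_ST replicate 3. It was called only at the upper end of each range.

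Hapln2 encodes a link protein of the nodes of Ranvier and is made by oligodendrocytes. It had an FPKM of 2.91, 2.44 and 5.16 in CT, 2.6, 4.82 and 4.58 in WT_ST, and 3.14, 4.0 and 4.58 in KO_ST. Each group spanned low and high mice, and its spread inside groups (0.345 on the log2 scale) was wider than that of 97.2% of tested genes. Log2 fold changes were 0.19, 0.19 and -0.00 in the 3 comparisons, with SEs of 0.249, 0.215 and 0.189. The gene most like it over the 9 mice was Myrf, the myelin regulatory factor (r = 0.970), followed by Gatm (0.969) and Ugt8a (0.962), an enzyme of myelin lipid synthesis. Summed markers of mature oligodendrocytes ranged from 425 to 815 in CT, 450 to 720 in WT_ST and 486 to 644 in KO_ST, with CT replicate 3 highest for them and for Hapln2. None of their 8 genes was called. With single mice left out, the difference of Hapln2 in KO_ST against CT ranged from 0.03 without CT replicate 2 to 0.44 without CT replicate 3, and it was called only in the latter case. In WT_ST against CT the same mice gave the range, from 0.03 to 0.44, and it was called in neither case.

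Other genes of the matrix pathway were read from lists of their functions. Of 7 tested genes of hyaluronan synthesis and turnover none was called in any comparison, and the most abundant, Cemip, a hyaluronan-depolymerizing protein, changed by -0.02 and -0.01 on the log2 scale in WT_ST and KO_ST against CT. Of 20 tested genes that build and sulfate chondroitin chains, Chst7, a sulfotransferase, was called lower in KO_ST against CT (-0.29, SE 0.0777, limma adjusted p = 0.470), and none was called otherwise. Of 7 ADAMTS proteases that cut lecticans, Adamts20 was called higher in KO_ST against CT (0.47, SE 0.194, limma adjusted p = 0.520). No gene was called among 7 receptors for chondroitin sulfate and net-bound signals, of which Ptprs was the most abundant with a log2 fold change of -0.00 and 0.06 against CT. The same held for 5 ligands and partners of Ptprz1, with Cntn1, a neuronal adhesion molecule, at -0.01 and 0.05, and for 5 relatives of the members, with Cspg5, a brain proteoglycan, at -0.16 and -0.15. The summed FPKM of the Ptprz1 ligands and partners was 254 to 262 in CT, 250 to 261 in WT_ST and 269 to 271 in KO_ST, where it stood above both other groups. That of the relatives was 94.8 to 103 in CT, 90.02 to 92.8 in WT_ST and 90.8 to 95.2 in KO_ST. Together these 51 tested genes had 0, 2 and 0 calls, to be read against the shares of all tested genes given above. In edgeR they had 5 calls for KO_ST against CT, where that fit called 665 of all 14370 tested genes.

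Each lectican gene lies next to a link protein gene in the mouse genome (GRCm38). Bcan (chromosome 3, 87987531 to 88002175) and Hapln2 are 18382 bp apart, Ncan (chromosome 8, 70093085 to 70120863) and Hapln4 2222 bp, Vcan (chromosome 13, 89655309 to 89743027) and Hapln1 43476 bp, and Acan (chromosome 7, 79053226 to 79115099) lies 1927 bp from Hapln3, which is not a member. Tnc spans 63959785 to 64047015 on chromosome 4, Tnr 159523729 to 159931729 on chromosome 1 and Ptprz1 22875315 to 23052916 on chromosome 6. Neighbours did not show a common pattern over the 9 mice. Pearson's r was 0.179 for Bcan and Hapln2 (exact permutation p = 0.638), -0.600 for Ncan and Hapln4 (exact permutation p = 0.0915) and 0.570 for Vcan and Hapln1 (exact permutation p = 0.107). Non-coding genes or pseudogenes overlap 7 of the members, and whether counting used strand is not given in the sources used here, so reads of overlapping pairs may not be told apart.

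Among all 45 pairs of members, 5 reached an exact permutation p under 0.05 (two-sided) for Pearson's r and none after Benjamini-Hochberg adjustment. Mice were permuted regardless of group, so these p-values also reflect differences between group means. The 5 pairs included each pair among Acan, Bcan and Ptprz1. Acan and Bcan had r = 0.782 and rho = 0.828 (exact permutation p = 0.0172 and 0.00853, adjusted p = 0.306 and 0.128). Acan and Ptprz1 had r = 0.743 and rho = 0.850 (exact permutation p = 0.0110 and 0.00607, adjusted p = 0.306 and 0.128), and Bcan and Ptprz1 r = 0.671 and rho = 0.870 (exact permutation p = 0.0398 and 0.00366, adjusted p = 0.444 and 0.128). Without the 2 mice farthest from the median of the first gene, r was 0.842, 0.859 and 0.724. Inside groups, from deviations from the group means, r was lower, at 0.676, 0.389 and 0.324, so part of the relation lay between the group means. The others were Hapln1 with Hapln4 (r = 0.728, rho = 0.700, exact permutation p = 0.0204 and 0.0433, adjusted p = 0.306 and 0.487, r = 0.834 without 2 mice) and Vcan with Hapln2 (r = 0.684, rho = 0.603, exact permutation p = 0.0494 and 0.0918, adjusted p = 0.444 and 0.689, r = 0.577 without 2 mice). Inside groups r was 0.598 for Hapln1 with Hapln4 and 0.677 for Vcan with Hapln2. Over all pairs the median r was 0.115 and 28 were positive.

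For the remaining members, the tested gene most alike over the 9 mice was Sept9 for Acan (r = 0.964), Trappc6b for Bcan (0.949), Eif4ebp2 for Ncan (0.949), Hpdl for Vcan (0.946), Nme1 for Tnc (0.947), Tars for Hapln1 (0.976), Yipf1 for Hapln4 (0.944) and Tulp3 for Ptprz1 (0.934). Each is the best of 14360 genes and is given as a description.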

How the data were processed

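mPFC RNA of 9 mice was sequenced by the study as 101-bp paired-end TruSeq Stranded mRNA libraries. Per the submitters' processing notes, HISAT2 2.1.0, Bowtie2 2.3.4.1 and StringTie 1.3.4d were used with mm10. For each gene the authors deposited raw read counts, summing to 43778471 to 61150128 per mouse, and FPKM values, which they had scaled for transcript length and depth. Groups and replicates follow the sample labels, whose numbering differs in part from the mouse numbers carried by the deposited data.

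From these files, log2(FPKM + 1) was quantile normalized over the 9 mice and genes averaging at least 30 reads were tested between 2 groups with limma 3.58.1 (mean-variance trend) in R 4.3.3, after the study's own criterion of p under 0.05 and fold change above 1.2. Benjamini-Hochberg adjustment ran over all 14370 tested genes. With 3 mice a group, p-values rest on the spread between these mice. Alternatives used edgeR 4.0.16 (quasi-likelihood, TMM) and DESeq2 1.42.0 on the counts, a pseudocount of 0.1, no quantile normalization, other filters, all mice in the same fit, a replicate block and leaving out each mouse. Correlations used exact permutation over all 9 mice, regardless of group. The methods were tested on simulated data. Members, lists and tests were chosen with earlier results of these data known. Named genes are the members, Fkbp5, called genes of the lists or else each list's most abundant gene, markers beside a result and each member's most similar gene. Gatm, Ugt8a and Hapln3 were added after their values were seen. Promoter sequences are from RefSeq. Figures were drawn with matplotlib 3.10.9.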

Additional observations from a re-analysis of the deposited data

How the results depend on the processing

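Tnc kept its direction in all 3 comparisons under every alternative in which it was tested. Its log2 fold changes were 0.12 to 0.17, 0.36 to 0.46 and 0.21 to 0.31 when single mice were left out. As its groups do not overlap, leaving out a mouse could not turn its direction. Tnc was not tested with a minimum mean FPKM of 5, where no member was called in KO_ST against CT (0) or WT_ST (0). Members called in WT_ST against CT numbered 2 with edgeR (Acan and Tnc), 1 with DESeq2 (Acan) and 0 to 2 without single mice. In KO_ST against CT they numbered 1 to 3 and in KO_ST against WT_ST 0 to 2 without single mice.

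Calls over all tested genes in WT_ST against CT were 355, and 544 with a pseudocount of 0.1, 174 with a minimum mean FPKM of 5, 535 with edgeR, 552 with DESeq2 and 277 to 542 without single mice, the most without CT replicate 3. In KO_ST against CT they were 512, and 248 with a minimum mean FPKM of 5 and 410 to 734 without single mice. A pseudocount of 0.1 gave 720 there, edgeR 665 and DESeq2 738. In KO_ST against WT_ST they were 287, and 445 with a pseudocount of 0.1 and 118 with a minimum mean FPKM of 5. With edgeR 426 genes were called there, and with DESeq2 410. Leaving out single mice gave 245 to 477, the most without KO_ST replicate 3. Calls among the pathway genes in WT_ST against CT were 2 with a pseudocount of 0.1, 1 with edgeR and 0 to 1 without single mice. In KO_ST against CT they were 1 without quantile normalization, 1 without a filter, 0 with a minimum mean FPKM of 5, 5 with edgeR and 1 to 4 without single mice. In KO_ST against WT_ST they were 1 with a pseudocount of 0.1, 3 with edgeR, 3 with DESeq2 and 0 to 2 without single mice. The share of calls that were higher in WT_ST than in CT was 46.8%, and 34.1% without quantile normalization, 33.1% with edgeR and 34.2% with DESeq2. For KO_ST against CT it was 43.2%, and 28.5% without quantile normalization. Without CT replicate 3 these shares were 59.4% and 53.7%, and without CT replicate 1 47.3% and 51.4%, so the balance turned with single CT mice. The causes of these shifts were not tested.

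Directions turned only for members with small differences. Ncan in WT_ST against CT was 0.00201 with edgeR and 0.00182 with DESeq2. Vcan was -0.147 and -0.148 by these tools in WT_ST against CT and 0.163 and 0.167 in KO_ST against WT_ST, and -0.00698 in KO_ST against CT without quantile normalization. Hapln2 in KO_ST against WT_ST was 0.00549 with a pseudocount of 0.1. Without single mice, log2 fold changes in WT_ST against CT ranged from -0.0921 to 0.0924 for Ncan, -0.00589 to 0.107 for Vcan, -0.304 to 0.178 for Tnr, -0.0905 to 0.0446 for Hapln1 and -0.0906 to 0.109 for Hapln4. In KO_ST against CT they ranged from -0.0825 to 0.0230 for Ncan, -0.0371 to 0.110 for Vcan and -0.242 to 0.311 for Tnr. In KO_ST against WT_ST they ranged from -0.130 to 0.0546 for Ncan, -0.0730 to 0.0745 for Vcan, -0.193 to 0.361 for Tnr and -0.208 to 0.117 for Hapln2.

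Deviations from the group means had a mean r of -0.0102 (-0.259 to 0.234) over 9 pairs of mice that shared a replicate number across groups. Over 18 pairs that did not share a number it was 0.00497 (-0.266 to 0.19). The tests treated mice as unpaired. As the label numbers need not mark any shared handling, other pairing could not be checked. With the replicate block, 399, 562 and 279 genes were called in the 3 comparisons, with 0, 1 and 1 members among them. Depth limits Acan most, at 82 to 163 reads per mouse.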
